A study of Mus musculus with 11 samples.

Results

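Livers of iAST mice given Sorafenib for 14 d were compared with livers given vehicle for 14 d, using 7 of the 11 arrays of the study: the 4 arrays whose source label names Sorafenib for 14 d and the 3 whose label names vehicle for 14 d. All mice were of the C57BL6n strain, were 12 to 15 weeks old per the labels, and gave liver samples labelled as tumour liver. The treated mice received Sorafenib by mouth at 60 mg/kg, and the controls an equal amount of the vehicle solution over the same 14 d. A further 4 arrays, of livers given 60 mg/kg for 83 d, entered the normalization and the fit, where they steady the estimate of the spread. Their levels are also set beside those at 14 d below.

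iAST mice are known as an inducible model of liver cancer, in which a simian virus large T antigen controlled by the albumin promoter is switched on in hepatocytes by Cre recombinase. Tumours in this model therefore start from hepatocytes and from a viral oncogene, which limits it as a model of other liver cancers. Sorafenib is a multikinase inhibitor used against hepatocellular carcinoma. It blocks RAF kinases, which pass growth signals from RAS to MEK and ERK inside the cell, and the receptors for VEGF and PDGF, through which endothelial cells and pericytes of tumour vessels are maintained. RNA was taken from lysates of whole liver, so tumour cells, other hepatocytes, vessels and immune cells were measured together, and fewer cells of a type cannot be told apart from less RNA per cell.

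Each array gave an intensity for 26512 probes, and no table pairing these Illumina identifiers with genes was used here. The changed transcripts are therefore described as groups of probes, with 4 probes named by identifier, and the label of tumour liver could not be checked against marker genes. Levels are given as log2(intensity + 16) after quantile normalization, and a difference of 1 on this scale is a 2-fold difference. A probe was called where limma's adjusted p was under 0.05. Whether the arrays of a group came from separate mice is not stated in the labels, and p-values measure only the spread between the samples at hand, which could be technical.

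The arrays lay on 2 chips, and the chips were not balanced between the groups. The 3 vehicle arrays and Sorafenib replicate 4 were on the chip that also held the 83 d arrays, called the shared chip here. Sorafenib replicates 1 to 3 were on a second chip, which held no vehicle array, so for these 3 arrays chip and treatment cannot be told apart. Vehicle replicates 1 to 3 and Sorafenib replicates 1 to 3 occupied the same positions, F to H, on their chips, and replicate 4 was at position A. Median intensities of the 7 arrays were 98.7 to 99.9, and the groups overlapped in this measure.

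After 14 d of Sorafenib more transcripts were lower than higher. Of the 26512 probes, 309 (1.17%) were called, with 235 lower (0.886%) and 74 higher (0.279%), on arrays of both chips. A fixed term for the chip left 6 calls, 4 of them among the 309, and the shared chip alone gave 2. Without vehicle replicate 1 the count was 200, with 26 higher. Among the calls, 129 of the lower and 52 of the higher probes differed by at least 1.5-fold, and 8 and 5 by at least 3-fold. Most changes were thus under 2-fold: the quartiles of their size were 1.34-fold and 1.86-fold for the lower calls and 1.47-fold and 1.99-fold for the higher calls. Treated and vehicle arrays did not overlap in 231 of the 235 lower and 66 of the 74 higher calls, where 9.23% of all probes showed no overlap. The calls were chosen by their difference in these same arrays, which favours non-overlap, so this is a description. Over all probes, non-overlap was about as common with treated arrays lower (4.81%) as with treated arrays higher (4.42%).

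**Figure D1:**
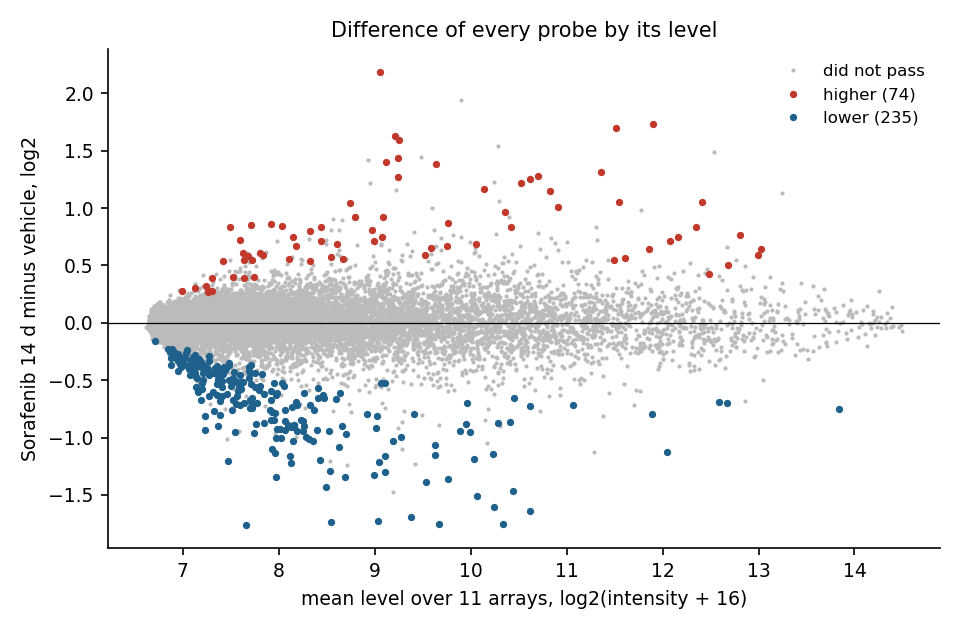
Difference between Sorafenib 14 d (4 arrays, 3 of them on the second chip) and vehicle (3 arrays, shared chip) on the log2 scale (y axis) against the mean log2 level over all 11 arrays (x axis), 1 point per probe. Most of the 235 lower calls lie at mean levels of 6.84 to 9.26, and the 74 higher calls are spread more evenly along the axis.

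The excess of lower calls lay among probes with mean levels of 6.84 to 9.26. Among the 6628 probes with mean levels of 6.84 to 7.61, 109 were lower and 11 higher. Among the 3976 probes at 7.61 to 9.26, 96 were lower and 33 higher. Among the 2652 brightest probes, at 9.26 and above, the directions were even, with 29 lower and 30 higher. The dimmer probes, at levels under 6.84 near the background signal, held 1 call, which was lower. The size of a call rose with the level, from a median of 0.41 on the log2 scale at levels of 6.84 to 7.61 to 0.95 among the brightest probes. The median SE of a difference rose from 0.07 to 0.14 between the same bands. A larger SE requires a larger difference for a call, so the rise in size follows at least in part from the threshold. The mean level used for this grouping includes the compared arrays, so that a lower call also lowers its own level slightly, and a difference between bands in direction was not tested.

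**Figure D2:**
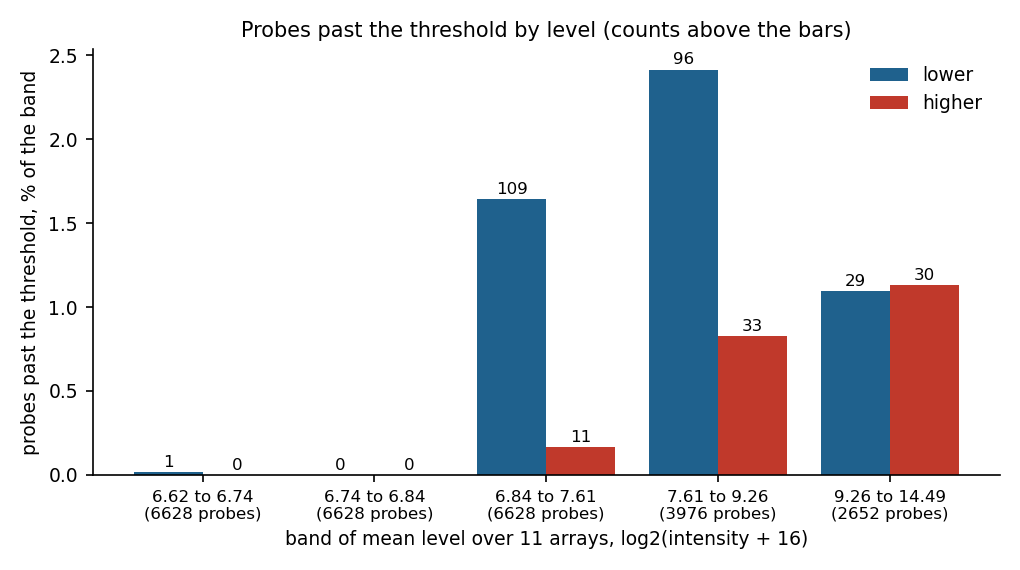
Share of the probes of each level band that were called lower or higher after 14 d of Sorafenib (y axis, percent of the band), with counts above the bars. Arrays of both chips entered the fit, and lower calls outnumber higher ones at 6.84 to 7.61 (109 against 11) but not among the brightest probes (29 against 30).

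Most lower calls had a vehicle mean above the upper quartile of all probes, 7.61. Of the 235 lower calls, 67 had a vehicle mean under this level and 142 had a treated mean under it. A treated mean under the median of all probes, 6.84, was found for 13 of them, against 1 vehicle mean. The median level of the lower calls was 8.10 with vehicle and 7.48 with Sorafenib. For the 74 higher calls it was 8.16 with vehicle and 9.35 with Sorafenib, and 17 of them crossed the level of 7.61 upward. The size of a difference depended on how background was treated. After a normexp background correction the median size of the 309 calls was 0.97 on the log2 scale, against 0.65 without it. The median SE over all probes rose as well, to 0.16 from 0.05. Which size is nearer to the change in transcript level was not tested.

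Spread within the groups was of the same order in both. Over the lower calls the median SD was 0.16 over the 3 vehicle arrays and 0.12 over the 4 treated arrays, and over the higher calls 0.21 and 0.22. Over all probes these medians were 0.06 and 0.07. The called probes were thus more variable within groups than the median probe. However, 308 of the 309 calls lay above the median level of all probes, where differences had a larger SE. Spread was not compared at matched levels.

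Of the lower transcripts, ILMN_1257574 had the smallest adjusted p. With vehicle its log2 level was 9.07 in replicate 1, 9.40 in replicate 2 and 8.60 in replicate 3, all on the shared chip. With Sorafenib it was 7.18, 7.23 and 7.37 in replicates 1 to 3 on the second chip and 7.26 in replicate 4 on the shared chip. The treated arrays thus lay within a narrow band on both chips. These levels were not far above the median of all probes, 6.84, and dimmer probes spread less between arrays than bright ones. The lowest vehicle array was 1.23 above the highest treated one. A gap was required of all named probes, which were chosen among calls without overlap. As deposited intensities, the vehicle arrays read 369 to 663 and the treated arrays 128 to 150.

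The mean level of ILMN_1257574 fell from 9.02 ± 0.40 (SD, n = 3) to 7.26 ± 0.08 (SD, n = 4), a log2 difference of -1.76 ± 0.13 (SE), or 3.40-fold, with a limma adjusted p of 3.57e-07. The 95% confidence interval of the difference was -2.03 to -1.50. The SE, the interval and the adjusted p use a spread pooled over the 3 groups. Vehicle arrays spread more (SD 0.40) than the Sorafenib arrays at 14 d (0.08) and 83 d (0.07). The precision is thus likely overstated. Set against the vehicle mean, replicate 4 differed by -1.77 and the second-chip arrays by -1.76, so the difference was as large on the shared chip as across chips. With a chip term the limma adjusted p was 5.32e-04, and over 20 alternatives it ranged from 6.67e-10 to 0.00646. The normexp correction gave a log2 difference of -2.57.

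ILMN_2810882, the lower probe with the next smallest adjusted p, was at 9.62, 9.11 and 9.51 in vehicle replicates 1 to 3. In the Sorafenib arrays it was at 7.80, 8.21 and 7.82 in replicates 1 to 3 on the second chip and at 8.08 in replicate 4 on the shared chip. Replicate 4 lay inside the range of the second-chip arrays, and the groups were 0.89 apart at their nearest arrays. The mean fell from 9.41 ± 0.27 (SD, n = 3) to 7.98 ± 0.20 (SD, n = 4), a log2 difference of -1.43 ± 0.15 (SE), or 2.70-fold, with a limma adjusted p of 9.51e-05. The 95% confidence interval was -1.74 to -1.12. With the chip as a term the difference was -1.33 and the call ended (limma adjusted p = 0.0544), as it did on the shared chip alone (0.102). The range over 20 alternatives was 1.62e-05 to 0.102.

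Of the higher transcripts, ILMN_1226935 had the smallest adjusted p, and it was also among the brightest probes of the array. Its vehicle levels were widely spread, at 9.92, 11.06 and 10.41 in replicates 1 to 3. The Sorafenib levels were 12.03, 12.53 and 12.55 in replicates 1 to 3 on the second chip and 11.67 in replicate 4 on the shared chip. Replicate 4 was the lowest treated array, 0.61 above the highest vehicle array. As intensities, vehicle arrays read 958 to 2156, the second-chip arrays 4208 to 5922 and replicate 4 3210.

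The mean of ILMN_1226935 rose from 10.46 ± 0.57 (SD, n = 3) to 12.20 ± 0.42 (SD, n = 4), a log2 difference of 1.73 ± 0.22 (SE), or 3.32-fold, with a limma adjusted p of 3.28e-04. The 95% confidence interval was 1.28 to 2.19. Here too the pooled spread likely overstates the precision, with an SD of 0.57 for vehicle against 0.17 for Sorafenib at 83 d. The second-chip arrays exceeded the vehicle mean by 1.91 and replicate 4 by 1.21. With the chip as a term the call ended (limma adjusted p = 0.262), and on the shared chip alone it was 0.376. The range over 20 alternatives was 2.09e-05 to 0.376.

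ILMN_1218037 rose less but from a tight baseline. It was at 8.24, 8.13 and 8.07 in vehicle replicates 1 to 3, at 8.996, 9.14 and 9.05 in Sorafenib replicates 1 to 3 on the second chip, and at 8.74 in replicate 4 on the shared chip. Again replicate 4 was the lowest treated array, and it was 0.50 above the highest vehicle array. The mean rose from 8.15 ± 0.09 (SD, n = 3) to 8.98 ± 0.17 (SD, n = 4), a log2 difference of 0.83 ± 0.11 (SE), or 1.78-fold, with a limma adjusted p of 5.49e-04. The 95% confidence interval was 0.60 to 1.07. Replicate 4 alone differed from the vehicle mean by 0.59, and the call ended with the chip as a term (limma adjusted p = 0.312) and on the shared chip (0.430). The range over 20 alternatives was 2.10e-04 to 0.430.

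**Figure D3:**
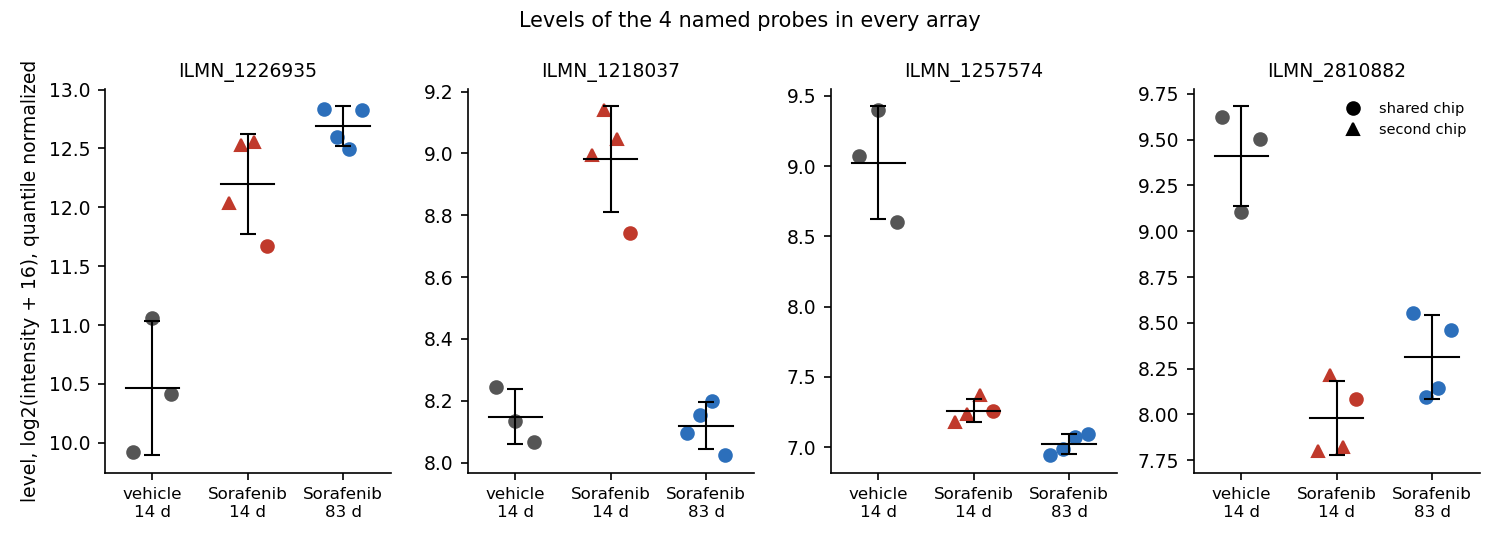
Log2 levels of the 4 named probes in every array (y axis) by group (x axis), with circles for the shared chip, triangles for the second chip, and the mean and SD of each group as lines. The Sorafenib 14 d array on the shared chip is the lowest treated array for ILMN_1226935 and ILMN_1218037 and lies among the other treated arrays for ILMN_1257574 and ILMN_2810882.

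Of the 4 named transcripts, ILMN_1218037 differed between the livers given Sorafenib for 83 d and for 14 d; the 83 d arrays were all on the shared chip. ILMN_1257574 was at 7.02 ± 0.07 (SD, n = 4) and ILMN_1226935 at 12.69 ± 0.17 (SD, n = 4), both past their 14 d level, and neither differed from 14 d by limma (adjusted p = 0.464 and 0.339). ILMN_2810882 was at 8.31 ± 0.23 (SD, n = 4), and its difference from 14 d did not pass either (adjusted p = 0.343). ILMN_1218037 was back at the vehicle level, at 8.12 ± 0.08 (SD, n = 4), below 14 d by a log2 difference of -0.86 ± 0.11 (SE) with a limma adjusted p of 8.52e-05. Over the groups of calls, the median log2 difference from vehicle was 0.72 at 14 d and 0.42 at 83 d for the 74 higher probes, and -0.63 and -0.40 for the 235 lower ones. Both comparisons share the vehicle arrays, and the probes were chosen at 14 d, which favours the larger value there.

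Replicate 4, the only treated array on the chip of the controls, moved in the same direction as the others but on the whole less far. Among the 309 calls its level lay beyond all 3 second-chip arrays in 42, within their range in 106, between them and the vehicle arrays in 151, and not past all vehicle arrays in 10. Set against the vehicle mean, the higher calls had a median log2 difference of 0.55 in replicate 4 and 0.78 in the second-chip arrays. The lower calls had -0.52 and -0.64. All 4 treated arrays chose these probes, so these values are a description.

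The fixed chip term rests the comparison on replicate 4. Its 6 calls were 5 lower and 1 higher, and the 4 among the 309 were all lower. Both calls on the shared chip alone were lower, with 1 among the 309. Both fits rest on 1 treated array, whose spread was taken from the other groups, and the median SE over all probes was 0.08, against 0.05. At an unadjusted p under 0.05 there were 1554 and 1457 probes, against 2588 without the chip term. All 309 calls kept their sign in replicate 4 set against the vehicle mean, in probes that this array helped to choose. The chip term itself compares the treated arrays of the second chip with replicate 4 alone. It cannot separate the chip from the position or the liver of replicate 4, so no conclusion about the chip was drawn from this term.

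Differences were also measured in arrays that took no part in the choice of probes. Each treated array was left out together with each vehicle array, probes were called from the rest, and the difference between the 2 left-out arrays was taken in the direction of the call. For Sorafenib replicates 1 to 3, on the second chip with 2 of the treated arrays that chose the probes, so that a chip difference would enter both, the median difference was 0.46 to 0.67 on the log2 scale over 9 pairs, and 84.3% to 98.4% of the called probes went in the direction of the call. For replicate 4, on the shared chip with all vehicle arrays, it was 0.37 against vehicle replicate 1 (250 of 274 probes in the direction of the call), 0.32 against vehicle replicate 3 (324 of 401) and 0.06 against vehicle replicate 2 (328 of 594). Over all probes, 48.7% to 54.0% went in the same direction for replicate 4 and 52.8% to 56.9% for the other arrays.

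Transcripts called lower and higher did not hold equally in that last pair. For replicate 4 against vehicle replicate 2, the median difference in the direction of the call was 0.14 for 386 probes called lower and -0.02 for 208 called higher. Against vehicle replicate 1 these values were 0.35 for 218 lower and 0.43 for 56 higher probes, and against vehicle replicate 3 they were 0.32 for 304 and 0.33 for 97. The mean over the 3 vehicle arrays was 0.25. The small value thus rested on vehicle replicate 2, which was on the same chip as the rest of the controls. The probes differ between these pairs, and a difference between the pairs was not tested.

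**Figure D4:**
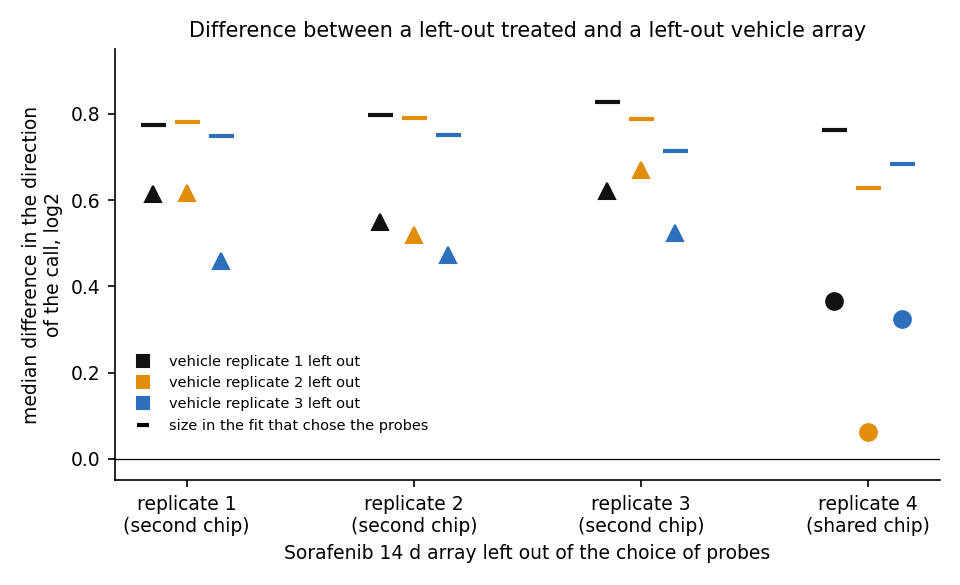
Median log2 difference between a left-out Sorafenib 14 d array (x axis) and a left-out vehicle array (colour), in the direction of the call, for probes called without both arrays; triangles are second-chip and circles shared-chip arrays, and dashes give the median size in the fit that chose the probes. Replicates 1 to 3 lie at 0.46 to 0.67 and replicate 4 at 0.06 to 0.37.

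The same order was seen when the arrays were compared on the same probes. Probes were called from 2 second-chip arrays and 2 vehicle arrays, with the 83 d arrays in the fit, and the remaining second-chip array and replicate 4 were then both set against the remaining vehicle array. In each of 9 combinations replicate 4 had the smaller median difference, 0.15 to 0.50 against 0.39 to 0.72 on the log2 scale. The share of probes in the direction of the call was 60.0% to 94.7% for replicate 4 and 82.6% to 98.7% for the second-chip array, where 48.5% to 54.1% and 53% to 57.7% of all probes went that way. The low values came from vehicle replicate 2: in its 3 combinations replicate 4 had medians of 0.15 to 0.175 and 60.0% to 62.3% of probes in the direction of the call. With vehicle replicates 1 and 3 the medians of replicate 4 were 0.32 to 0.50 and the shares 79.2% to 94.7%. The second-chip array was also lowest against vehicle replicate 2, with medians of 0.387 to 0.427 and shares of 82.6% to 86.7%. Against vehicle replicates 1 and 3 it had 0.496 to 0.719 and 88.4% to 98.7%. The left-out second-chip array shared its chip with the treated arrays that chose the probes, and replicate 4 did not. The 9 combinations reuse 7 arrays, and no test was made of the difference. Whether replicate 4 stood apart through its chip, its position or its own liver cannot be told apart with 1 such array.

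Single arrays changed how many transcripts were called. Without vehicle replicate 1, the count of 200 held 174 lower probes, and without Sorafenib replicate 4 it was 423, with 292 lower and 131 higher. Lower calls outnumbered higher ones in each of the 7 fits that left out 1 array. Of the 309 calls, 145 (46.9%) were called in all 7 of these fits, 123 of the lower and 22 of the higher. ILMN_1257574, ILMN_2810882, ILMN_1226935 and ILMN_1218037 were called in each of them.

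**Figure D5:**
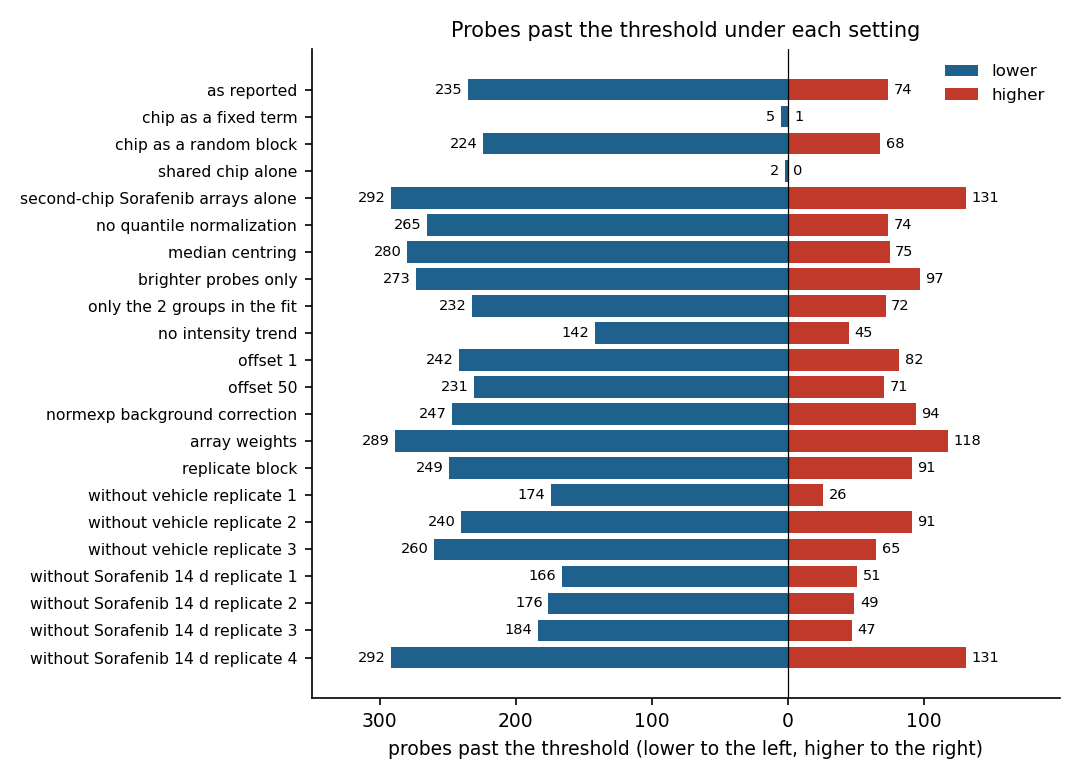
Number of probes called lower (left) and higher (right) after 14 d of Sorafenib under the reported setting and each alternative. The count drops to 6 with the chip as a fixed term and 2 on the shared chip alone, and lies between 187 and 423 otherwise; the second-chip arrays alone and the fit without replicate 4 are the same arrays.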

How the data were processed

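Total RNA of whole mouse liver, extracted with TRIZOL and labelled with biotin per the labels' protocols, was measured on 1-colour Illumina arrays. The values deposited by the authors are 1 linear intensity per probe and array, already close to a single distribution; the software behind them is not given in the sources used here, nor is their background correction or normalization. With a lowest intensity of 74.1, a background remained. An offset of 16 was added, log2 taken and the arrays quantile normalized. limma 3.58.1 in R 4.3.3 was fitted to all 11 arrays in 3 groups, with an intensity trend in eBayes, two-sided tests and Benjamini-Hochberg adjustment over 26512 probes (threshold 0.05). Named probes are the 2 with the smallest adjusted p in each direction among calls whose groups do not overlap. The planned gene lists and 1-probe-per-gene fit needed a probe table that was not used here. The members and lists were chosen with earlier results of these data known. No 2 arrays were identical. Figures used matplotlib 3.10.9. The number of arrays limits the precision.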

Additional observations from a re-analysis of the deposited data

Results flagged for a closer look

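ILMN_1218037 was picked out because its difference from vehicle was not the same at both times by a test of the difference itself. Its level at 83 d was below that at 14 d by a log2 difference of -0.86 (limma adjusted p = 8.52e-05), in 4 arrays against 4. The probe had been named for its small adjusted p at 14 d, and the same 14 d arrays enter this difference. That choice favours a larger value at 14 d, so the adjusted p is not independent of it. All 83 d arrays were on the shared chip and 3 of the 14 d arrays on the second. The 14 d array on the shared chip, at 8.74, also exceeded the 83 d arrays, which read 8.02 to 8.20. Dixon's test, applied to 10 groups of 4 arrays (named probes and median intensities), found 0 outlying arrays.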

How the results depend on the processing

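The count of 309 called probes moved most with the chip, to 6 with the chip as a fixed term and 2 on the shared chip alone, and to 187 without an intensity trend. A random block for the chip gave 292, with an estimated correlation within chips of 0.017. With a correlation this small the fit stays close to the reported one, and it does not separate chip from treatment. Leaving out each array in turn gave 200 to 423. The other alternatives gave 302 to 407. Leaving out Sorafenib replicate 4 is the same fit as the second-chip arrays alone and is counted once here. Under the 18 alternatives other than the fixed chip term and the shared chip alone, 117 of the 309 (101 lower and 16 higher) were called each time. None of these 18 separates chip from treatment. The named probes kept their direction under all 20 alternatives; ILMN_1257574 was called in all 20, and the other 3 in 18, losing the call with the fixed chip term and on the shared chip alone. The left-out same-chip difference of 0.25 was 0.218 to 0.394 under 6 alternatives chosen after seeing the data, as were the pairs of left-out arrays other than those of replicate 4. With the replicate number as a replicate block 340 probes were called, 278 of them among the 309. Deviations of same-numbered arrays correlated at -0.0442 to 0.0127 over the brighter probes, so the numbers were not taken as pairs; they also match the positions on the chips. One probe per gene was not run. Detection calls were not used here, so dim probes carry no statement about absence.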
